A study of Mus musculus with 30 samples.

Results

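The Zfp900 series is a run of mouse gene symbols, Zfp900 to Zfp999, given to zinc finger genes, most of which code for Krüppel-type (C2H2) proteins. The members were taken by name, as every gene whose listed symbol was Zfp9 followed by 2 more digits. They numbered 42 of the 14555 genes listed in any of 3 tables of liver RNA, with 40 in each table and 38 in all 3. The postnatal day 1 (PND1) and PND21 tables did not list Zfp941 and Zfp977, and the PND42 table did not list Zfp937 and Zfp984. The family itself was chosen by values of these libraries, namely the on-off spread between animals and the contrasts of exposure and of age, so that the counts of members are descriptions and not independent evidence.

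The 30 libraries came from livers of CD-1 mice, an outbred stock in which animals of 1 group differ in genotype. The exposed mice were labelled with 500 ppb cadmium chloride (CdCl2), and the title of the series places the exposure in gestation. The female groups were 4 exposed and 4 control mice at PND1, 3 exposed and 3 control mice at PND21, and 4 exposed and 4 control mice at PND42. The male groups were 4 exposed and 4 control mice at PND42. Neither litters nor the route of exposure are given in the labels, so that litter and exposure cannot be told apart and the p-values measure the spread between these animals. Values are normalised read counts, which are reads per gene divided by a library size factor. The libraries held 22.03 to 40.1 M reads (M, 1000000 reads) on listed genes. The PND1 and PND21 libraries were scaled together and the PND42 libraries apart, so levels at PND42 were compared only with each other.

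In each library the summed hepatocyte markers exceeded the sum of every other marker list. Erythroid markers, with 9 of 10 listed at the earlier ages, summed to between 27648 and 85963 in PND21 control females and between 229930 and 377120 in PND1 control females. In whole liver, fewer cells of a type and less RNA per cell cannot be told apart.

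C2H2 zinc finger proteins read DNA through a row of short fingers, each of which folds around a zinc ion. Many of the mouse members also carry a KRAB domain, which recruits the co-repressor TRIM28 (KAP1) and the histone methyltransferase SETDB1, and many proteins of this class silence transposable elements. The genes lie in clusters that arose by tandem duplication and vary between mouse strains. The binding site of most single members is not established, and no separate role is given here for those.

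Of the 42 members, 41 are annotated as protein coding, and Zfp939 is a transcribed unprocessed pseudogene (GENCODE vM21, GRCm38). The longest open reading frames held 0 to 21 C2H2 motifs with a median of 11. Zfp972, the member without a motif, and Zfp979, with 3, were the lowest, and Zfp974, with 21, was the highest. The members lay on 11 chromosomes, and 26 of them fell into 6 runs in which neighbouring series genes were less than 1000000 bp apart. A run of 9 members occupied chr17:21567008-22867134. A run of 6 members occupied chr4:145510759-147848366 and comprised Zfp990, Zfp992, Zfp981, Zfp979, Zfp984 and Zfp933. A run of 4 members, Zfp970, Zfp972, Zfp971 and Zfp931, occupied chr2:175372436-178078476.

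Close copies affect what a read count can say. Of the 42 members, 19 shared no stretch of 125 bases, the read length, with the transcripts of another gene. In 9 members over 10% of such stretches were shared, and how the authors treated reads that fit several genes is not stated in the labels. The share was 99.2% in Zfp935 (with Gm49359), 33.9% in Zfp963, 24.8% in Zfp992, 22.9% in Zfp972, 22.4% in Zfp984, 19.0% in Zfp979, 16.1% in Zfp971, 11.9% in Zfp932 and 11.2% in Zfp970. The counts of these 9 genes are uncertain for that reason. Only exact stretches of annotated transcripts were compared. Near copies, copies outside the annotation and alleles of these outbred mice that differ from the reference were not counted. The share therefore sets no upper limit on the uncertainty, in these 9 or in the other members. Zfp990, Zfp933, Zfp949 and Zfp950 shared 1.22%, 0%, 0% and 0%.

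The results turn on members with libraries far apart within a group, and their RefSeq promoters (GRCm38.p6) are shown for that reason. Each line gives the 120 bases before the RefSeq start, 5′ to 3′ on the strand of the gene. Capitals mark a run of 12 bases that Zfp979, Zfp981 and Zfp984, all from the chromosome 4 run, had in common. Zfp933, from the same run, and Zfp949 and Zfp970, from chromosomes 9 and 2, are set beside them.
Zfp979, minus strand, chr4:147642509-147642628: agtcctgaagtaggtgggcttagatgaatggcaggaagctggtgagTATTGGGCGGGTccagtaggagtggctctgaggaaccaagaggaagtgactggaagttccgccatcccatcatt
Zfp981, plus strand, chr4:146514800-146514919: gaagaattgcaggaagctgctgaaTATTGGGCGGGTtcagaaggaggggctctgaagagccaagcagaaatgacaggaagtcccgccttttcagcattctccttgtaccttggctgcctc
Zfp984, minus strand, chr4:147809789-147809908: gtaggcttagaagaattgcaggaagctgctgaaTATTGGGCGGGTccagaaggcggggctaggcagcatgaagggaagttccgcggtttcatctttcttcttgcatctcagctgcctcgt
Zfp933, minus strand, chr4:147848419-147848538: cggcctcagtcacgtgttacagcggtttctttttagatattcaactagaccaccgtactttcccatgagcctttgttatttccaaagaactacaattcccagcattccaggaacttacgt
Zfp949, plus strand, chr9:88547900-88548019: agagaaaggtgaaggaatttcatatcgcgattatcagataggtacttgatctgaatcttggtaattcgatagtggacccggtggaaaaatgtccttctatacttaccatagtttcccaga
Zfp970, plus strand, chr2:177464622-177464741: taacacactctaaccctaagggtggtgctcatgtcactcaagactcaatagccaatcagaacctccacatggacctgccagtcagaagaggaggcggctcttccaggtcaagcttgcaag

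Zfp981 and Zfp984 shared a longer run of 36 bases that includes the capitals. TATTGGGCGGGT was found, on either strand of the 250 bases before the start, in 12 of 32851 RefSeq promoters (0.0365%). It was picked because these promoters share it, so its rarity is a description. The 12 genes were Gm13212, Rex2, Zfp600, Zfp947, Zfp979, Zfp980, Zfp981, Zfp982, Zfp984, Zfp985, Zfp988 and Zfp994. Promoters were matched for 39 of the 42 members, and Zfp990, Zfp992 and Zfp930 were not matched. The RefSeq start of Zfp981 lies 12893 bp downstream of the GENCODE gene start. The 250 bases before the start held a median of 7 CG dinucleotides in members and 6 in all promoters.

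Most members were expressed at a modest level. Per kilobase of exon, the median member had 35.6 normalised counts at PND1 and PND21 and 57.1 at PND42. The order differed between ages. At PND1 Zfp956 (217 per kilobase), Zfp949 (216) and Zfp948 (180.0) were the highest, and Zfp970 (81.7) was 7th of the 40. The mean of Zfp949 includes 1 library at 4859 normalised counts. At PND21 Zfp970 was the highest, at 1388 per kilobase, followed by Zfp950 (189.0), and at PND42 it was the highest again, at 1971, followed by Zfp944 (173). The lowest were Zfp964 (4.79) at the earlier ages and Zfp940 (3.60) at PND42.

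Members differed most in how far animals of 1 group lay apart. A gene was called on-off in a group when at least 1 library had under 3 normalised counts and another at least 30. By this rule 4 of 42 members were on-off in some group, Zfp979, Zfp981, Zfp984 and Zfp990, against 403 of 14555 genes, which is 2.77% of all genes. Of the 276 other genes with a numbered Zfp symbol, 6 were on-off. All 4 on-off members lay in the chromosome 4 run. Of the 5 other listed genes in that run, 1 was on-off, Gm13212.

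Zfp979 was the most variable member, with a median range within groups of 5.80 on the log2 scale. At PND1 it had 0, 24.4, 96.1 and 14.5 normalised counts in exposed females and 14.2, 118, 0 and 0 in control females. At PND21 it had 0, 0 and 65.8 in exposed females and 2.92, 3.99 and 1.39 in control females. Exposed and control libraries overlapped at both ages. At PND1 libraries at 0 and libraries above 30 occurred on both sides, and at PND21 only 1 library, an exposed one, reached 30.

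At PND42 Zfp979 had 59.8, 0, 13.0 and 73.3 normalised counts in exposed females and 0, 0, 20.3 and 24.7 in control females. It had 6.03, 0, 0 and 45.7 in exposed males and 0, 31.3, 2.65 and 0 in control males. Over all 30 libraries it was at 0 in 12, under 3 in 15 and at 30 or more in 7. A count of 0 in a library allows up to 3 reads by counting error, so silence here means below that limit.

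Zfp984, which the PND42 table did not list, had 0, 54.9, 24.2 and 43.5 normalised counts in exposed females and 40.6, 82.1, 6.69 and 2.46 in control females at PND1. At PND21 it had 1.05, 1.87 and 43.1 in exposed females and 7.29, 1.33 and 26.3 in control females. Its highest PND21 exposed library was also the highest for Zfp979.

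Zfp990 was absent from 2 libraries and present in the other 28. At PND1 it had 221, 0, 418 and 122 normalised counts in exposed females and 144.5, 207, 255 and 123 in control females. At PND42 it had 81.2, 131, 0 and 93.8 in exposed females, against 50.4, 37.7, 17.7 and 46.4 in control females. In PND42 males it had 25.1, 62.8, 57.5 and 15.5 in exposed livers and 29.7, 50.8, 18.5 and 43.2 in control livers. Apart from its 1 library at 0, each PND42 exposed female lay above all 4 control females.

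The libraries at 0 for Zfp990 also stood apart in some other genes of its run. Zfp933 had its highest value of the group in both, 143 normalised counts in PND1 exposed female 2 and 528 in PND42 exposed female 3. Zfp992 had 61.1 in PND42 exposed female 3, against 440, 361 and 389 in the other 3 exposed females. In PND1 exposed female 2 it did not stand apart, at 206, within the 201 to 288 of the PND1 control females. Gm13212, also in the run, had 17.4 and 0 normalised counts in these libraries.

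**Figure D1:**
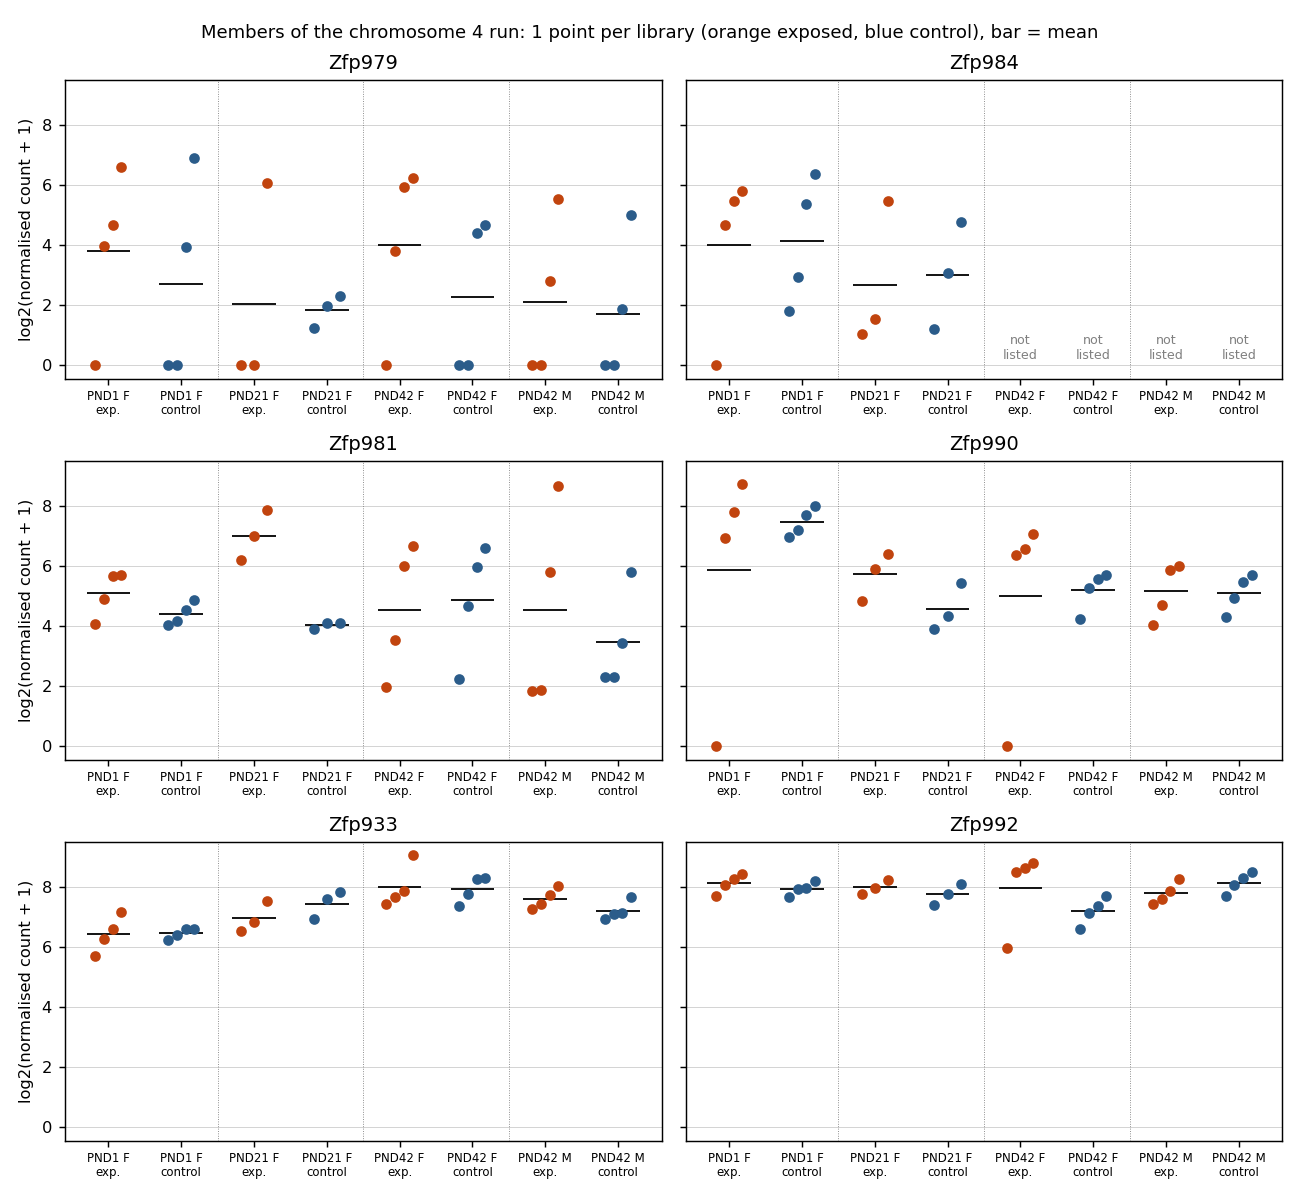
log2(normalised count + 1) of the 6 members of the chromosome 4 run, 1 point per library, in 8 groups (exp., exposed; F, female; M, male), with the group mean as a bar. Zfp979 and Zfp984 spread from 0 or near 0 to over 30 normalised counts within exposed and control groups, Zfp990 is at 0 in 2 exposed libraries, and Zfp933 and Zfp992 are expressed in all libraries.

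Across the 30 libraries, taken as deviations from the group mean on the log2 scale, Zfp990 and Zfp992 had Pearson's r = 0.742 and Spearman's rho = 0.715. Zfp990 and Zfp933 had r = -0.759 and rho = -0.697. With the 2 libraries farthest from the median of Zfp990, those at 0, left out as points, r was 0.655 with Zfp992 and -0.627 with Zfp933. The group means still included these 2 libraries, so the values cannot show what r would be free of them. The pairs were picked after their values were seen and the points share library scaling, so no p is given.

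The genes whose deviations were most like those of Zfp990, among the 12795 genes in all tables, were Gm26573 (r = 0.808), Gm13212 (0.743) and Zfp992 (0.742), all in the chromosome 4 run. For Zfp981 they were Zfp202 on chromosome 9 (0.740), Bend3 on chromosome 10 (0.706) and Gm26624 in the run (0.704). For Zfp979 they were Dgkz (0.736), Scap (0.734) and Dixdc1 (0.724), none on chromosome 4. For Zfp984, over the 14 libraries that list it, they were Gbp7 (0.948), Necab1 (0.937) and Zbp1 (0.925), and with 14 points high values of r arise more readily.

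**Figure D2:**
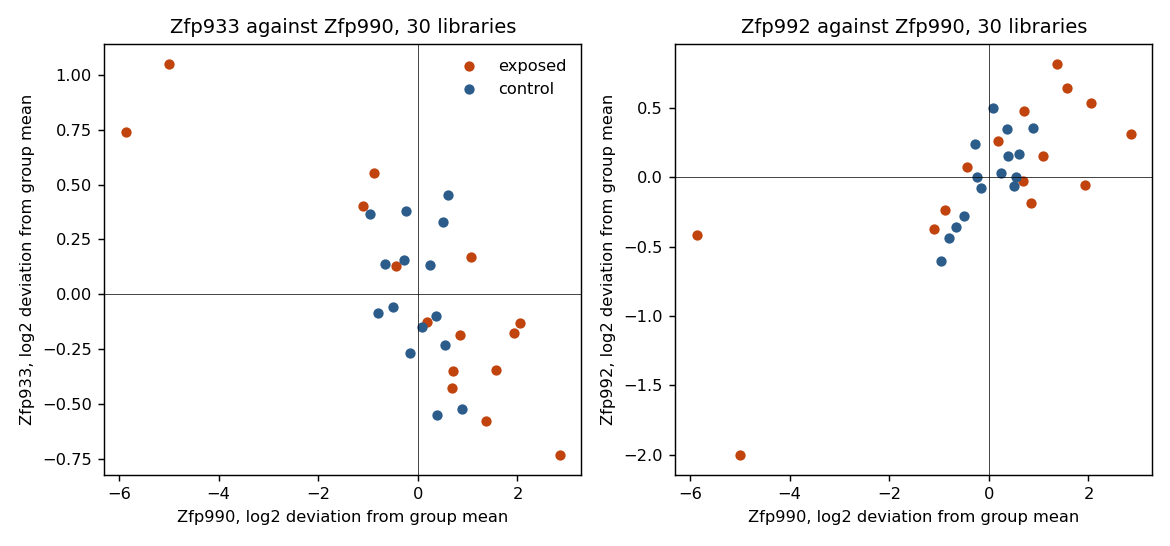
Deviation of each library from its group mean in log2(normalised count + 1), with Zfp990 on the x axis and Zfp933 (left) or Zfp992 (right) on the y axis, in 30 libraries coloured by exposure. Zfp933 runs opposite to Zfp990 (r = -0.759) and Zfp992 runs with it (r = 0.742), and the 2 points at the far left are the libraries in which Zfp990 is at 0.

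Zfp981 was the member with the lowest p between exposed and control females at PND21. It had 229, 126 and 71.8 normalised counts in exposed females and 16.0, 15.9 and 13.9 in control females. Every exposed library lay above every control library. The fitted log2 fold change was 2.98 ± 0.45 (SE), and limma gave an adjusted p of 0.146 over all 13886 genes tested, so it was not called. Without PND21 exposed female 3 it was called (adjusted p = 0.0357), and over the other alternatives the adjusted p reached 0.607. In the authors' deposited table Zfp981 had a log2 fold change of 3.22 with an adjusted p of 2.54e-06, and it was the 1 member of 39 with an adjusted p that was called there, beside 446 genes (3.13%).

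The same gene did not separate exposed from control livers at the other ages. At PND1 Zfp981 had 51.3, 15.7, 50.1 and 29.0 normalised counts in exposed females and 17.0, 15.2, 21.98 and 27.9 in control females. At PND42 it had 10.7, 101, 2.88 and 63.0 in exposed females and 3.67, 24.5, 61.0 and 95.7 in control females. In PND42 males it had 54.2, 403, 2.61 and 2.59 in exposed livers and 3.88, 54.8, 3.97 and 9.74 in control livers. These groups overlapped. The difference of its exposure effects between PND21 and PND1 was 2.29 ± 0.63 on the log2 scale, with a limma adjusted p of 0.343. In that test of the difference between ages 0 members were called, against 0.014% of all genes, and 2 of 40 had an unadjusted p under 0.05 (5%), against 9.07% of all genes.

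No member passed limma at an adjusted p of 0.05 between exposed and control females at PND1 (0 of 39 tested, 0% of 14059 genes) or PND21 (0 of 38 tested, 0.036% of 13886 genes). At an unadjusted p under 0.05 the members were 5 at PND1 (12.8%, against 14.5% of all genes) and 3 at PND21 (7.89%, against 9.57% of all genes), no larger a share than over all genes. By the whole reads recovered from the values and limma voom, 0 members were called at either age. The median member's log2 fold change was 0.11 at PND1, against -0.01 over all genes. The lowest p at PND1 belonged to Zfp935, at 150, 113, 120 and 129 normalised counts in exposed females and 91.6, 88.9, 77.4 and 90.3 in control females. These groups did not overlap, and the adjusted p was 0.265, but 99.2% of its stretches are shared with Gm49359. Groups did not overlap in 7.69% of all genes at PND1 and in 16.6% at PND21, and among the 40 members in 2 (Zfp935 above, Zfp958 below) and 4 (Zfp945 and Zfp981 above, Zfp931 and Zfp958 below).

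Zfp949, on chromosome 9, was far higher in 2 exposed libraries than in the rest. At PND1 it had 315, 306, 4859 and 346 normalised counts in exposed females and 447, 280, 276 and 272 in control females. At PND21 it had 354, 247 and 1748 in exposed females and 235, 243 and 248 in control females. Without the library at 4859 the PND1 exposed females lay within the range of the controls, and without the library at 1748 the PND21 groups still overlapped. At PND42 it had 270.3, 365, 394 and 281 in exposed females, all above the 256, 229, 237 and 169.7 in control females, but it was not called (limma adjusted p = 0.0623). The males of PND42 overlapped.

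The high libraries were PND1 exposed female 3 and PND21 exposed female 3. They are the only libraries whose sample tags begin with 16, and what the number marks is not given in the labels. Of the exposed females of their age, they were also the lowest for Zfp951 (27.6 and 57.4 normalised counts) and for Zfp970 (100.3 and 294). The 7 listed genes within 1000000 bp of Zfp949 lay between -0.47 and 0.23 log2 units from the median of the other libraries in the first and between -0.63 and 0.70 in the second, while Zfp949 lay 3.98 and 2.82 above. With these libraries in the groups the fitted log2 fold changes were 1.03 ± 0.91 at PND1 and 1.14 ± 0.69 at PND21 (limma adjusted p = 0.621 and 0.602).

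Tag numbers also recurred for other members. The 3 libraries with tag number 13 were PND1 exposed female 1, PND21 exposed female 2 and PND42 exposed male 2. Zfp979 was at 0 in all 3, and Zfp981 had 51.3, 126 and 403 normalised counts, the highest or next highest of the group each time. Tag 11 did not show this: Zfp979 had 0 in PND21 exposed female 1 and 59.8 in PND42 exposed female 1. Other numbers differed too. With tag 32 Zfp979 had 118.5 in PND1 control female 2 and 2.92 in PND21 control female 1. With tag 19 Zfp990 had 121.6 in PND1 exposed female 4 and 0 in PND42 exposed female 3. The tags named here were picked after their values were seen, from 8 numbers found in at least 2 libraries. Over the labels of all 30 samples, 9 of 18 tag numbers occurred at least 2 times.

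Zfp970, the member with the highest level per kilobase at PND21 and PND42, was low in 1 library of PND21. It had 3536, 3758 and 294 normalised counts in exposed females and 2966, 2341 and 5187 in control females. The low library was again PND21 exposed female 3, the library with high Zfp949. In that library 7 of the 12 listed genes of the chromosome 2 run were the lowest of the 6 PND21 libraries. Zfp970 itself is 1 of the 7, and the share over all genes was not computed, so the count is only a description. Gm14403, also among the 7, had 26.3 in that library, against 296 to 587 elsewhere. Cholangiocyte markers (5 of 6 listed) summed to 3892 there and to 1060 and 1653 in the other exposed libraries, against 1230 to 2104 in the controls. The same library also had the highest sum of stellate markers (5 of 5 listed; 29325, against 14660 to 18301 in the other PND21 libraries), of the 1 listed exocrine pancreas marker of 6, Cela1 (2096, against 613 to 1228), and of mitochondrial reads (23.4%, against 12.1% to 18.3%). The part of these in the values was not tested. The deviations of Zfp970 were most like those of Josd2 on chromosome 7 (r = 0.810) and of Gm14400 (0.802) and Gm14410 (0.794) in the same run (n = 30 libraries).

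**Figure D3:**
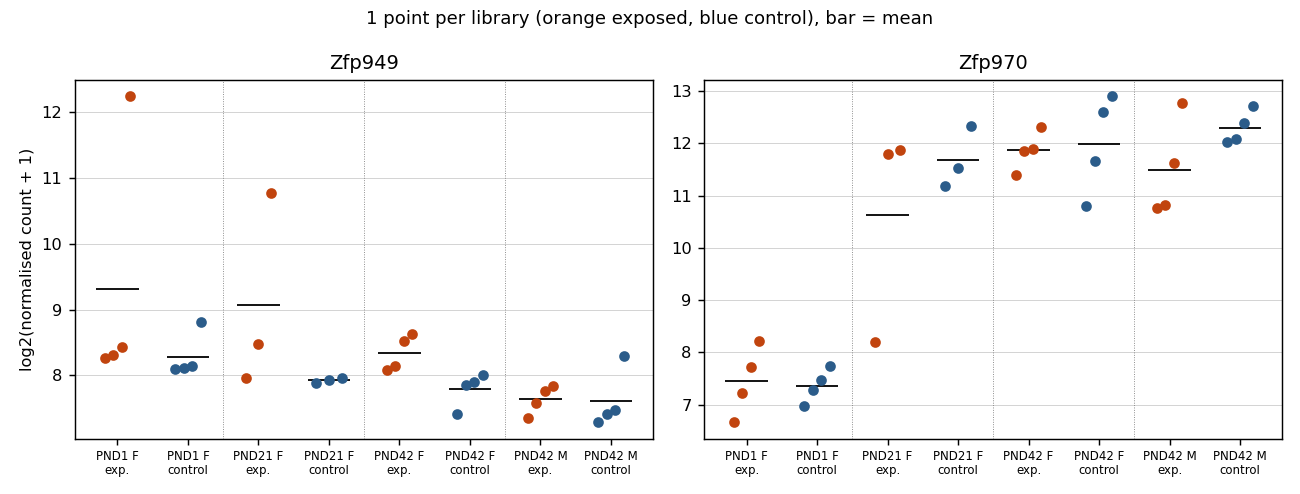
log2(normalised count + 1) of Zfp949 (left) and Zfp970 (right), 1 point per library in 8 groups (exp., exposed; F, female; M, male), with the group mean as a bar. Zfp949 stands at 4859 and 1748 normalised counts in 1 exposed library each of PND1 and PND21, and Zfp970 is at 294 in 1 PND21 exposed library while the other PND21 libraries lie between 2341 and 5187.

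In PND42 females 18 of the 40 members were called, 17 higher and 1 lower in exposed livers, in a comparison that called 40.2% of all 13091 genes (18.9% higher and 21.4% lower). The median member's log2 fold change was 0.64, against 0.00 over all genes. Among the other numbered Zfp genes 77 were higher and 16 lower of 263, with a median of 0.34. Exposed females also carried between 22.2% and 35.5% of reads on mitochondrial genes, against between 5.25% and 12.8% in control females. Hepatocyte markers (6 of 7 listed) summed to between 1203900 and 2241500 in exposed females and between 2815200 and 3922800 in control females. Cholangiocyte markers (5 of 6 listed) summed to between 358 and 656 in exposed females and between 1035 and 2091 in control females. Stellate markers (5 of 5) summed to between 8209 and 9709 in exposed and between 10822 and 13469 in control females, and Cela1, the 1 of 6 exocrine pancreas markers listed, lay between 519 and 677 in exposed and between 1070 and 1676 in control females. None of these sums overlapped between the groups, and their part in these results was not tested.

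Zfp975 had 538, 636, 544 and 701 normalised counts in exposed females, against 160, 189, 141 and 158.8 in control females. All exposed libraries lay above the controls, with a log2 fold change of 1.89 ± 0.30 (SE; limma adjusted p = 0.00014). Its neighbours on chromosome 7, Zfp976 and Zfp977, also rose. Zfp977 had 54.5, 80.6, 82.7 and 62.3 in exposed females and 16.5, 14.2, 13.3 and 30.5 in control females, a log2 fold change of 1.91 ± 0.51 (adjusted p = 0.00685). Zfp976 rose by 1.17 ± 0.26 on the log2 scale (adjusted p = 0.00186).

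Zfp950, on chromosome 19 and the most abundant of the members called, had 2339, 2654, 3580 and 2888 normalised counts in exposed females, against 1444, 1099, 982 and 1167 in control females. Its groups did not overlap (log2 fold change 1.28 ± 0.20, adjusted p = 0.000127). Zfp951 on chromosome 5 had 275, 308, 391 and 314 in exposed females, against 83.4, 75.4, 103 and 147.9 in control females (log2 fold change 1.68 ± 0.54, adjusted p = 0.0204). Zfp951 was also among the members that varied most within groups, with a median range of 1.34 log2 units.

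Of the 9 members of the chromosome 17 run, 6 were called. Zfp948 (log2 fold change 1.22), Zfp943 (1.06), Zfp945 (1.03), Zfp944 (0.70), Zfp995 (0.67) and Zfp942 (0.65) were higher in exposed females by limma. Zfp994, Zfp983 and Zfp946 were not called. Zfp948 had 555, 644, 1105 and 652 normalised counts in exposed females, against 361, 312, 285 and 269 in control females, with no overlap. The remaining calls were Zfp939 (1.16), Zfp932 (1.14), Zfp956 (1.10), Zfp958 (0.89), Zfp974 (0.66) and Zfp961 (0.57).

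The 1 member called lower was Zfp971 of the chromosome 2 run. It had 62.0, 67.1, 71.2 and 117 normalised counts in exposed females, against 233, 126, 202 and 98.6 in control females. The groups overlapped, with a log2 fold change of -1.01 ± 0.36 (adjusted p = 0.0311), and 16.1% of its stretches are shared. The call was lost in 8 of 15 alternatives. In this comparison 17 of the 40 members had exposed libraries all above the controls and 0 all below. Of all 13091 genes, 2921 were all above and 3082 all below, together 45.9%.

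In PND42 males 0 of 40 members were called by limma (0% of 13091 genes), 6 had an unadjusted p under 0.05 (15%, against 7.12% of all genes), and limma voom called 0. The median member's log2 fold change was 0.27, against -0.03 over all genes, and 0 members had groups that did not overlap, against 1.73% of all genes. The member of lowest p was Zfp941, with 58.3, 17.1, 23.5 and 37.1 normalised counts in exposed males and 3.88, 21.5, 10.6 and 8.35 in control males (log2 fold change 1.60 ± 0.49, adjusted p = 0.622). Zfp951 followed, at 139, 142, 84.9 and 201 in exposed males and 9.05, 135, 67.5 and 37.6 in control males. Its log2 fold change of 1.65 ± 0.54 was about that in females (1.68), but the male groups overlapped. Leaving out 1 library at a time gave 0.94 to 2.19 in males and 1.55 to 1.87 in females. B-cell markers (6 of 7 listed) summed to between 567 and 915 in exposed males and between 187 and 420 in control males, with no overlap, and their part in these values was not tested.

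**Figure D4:**
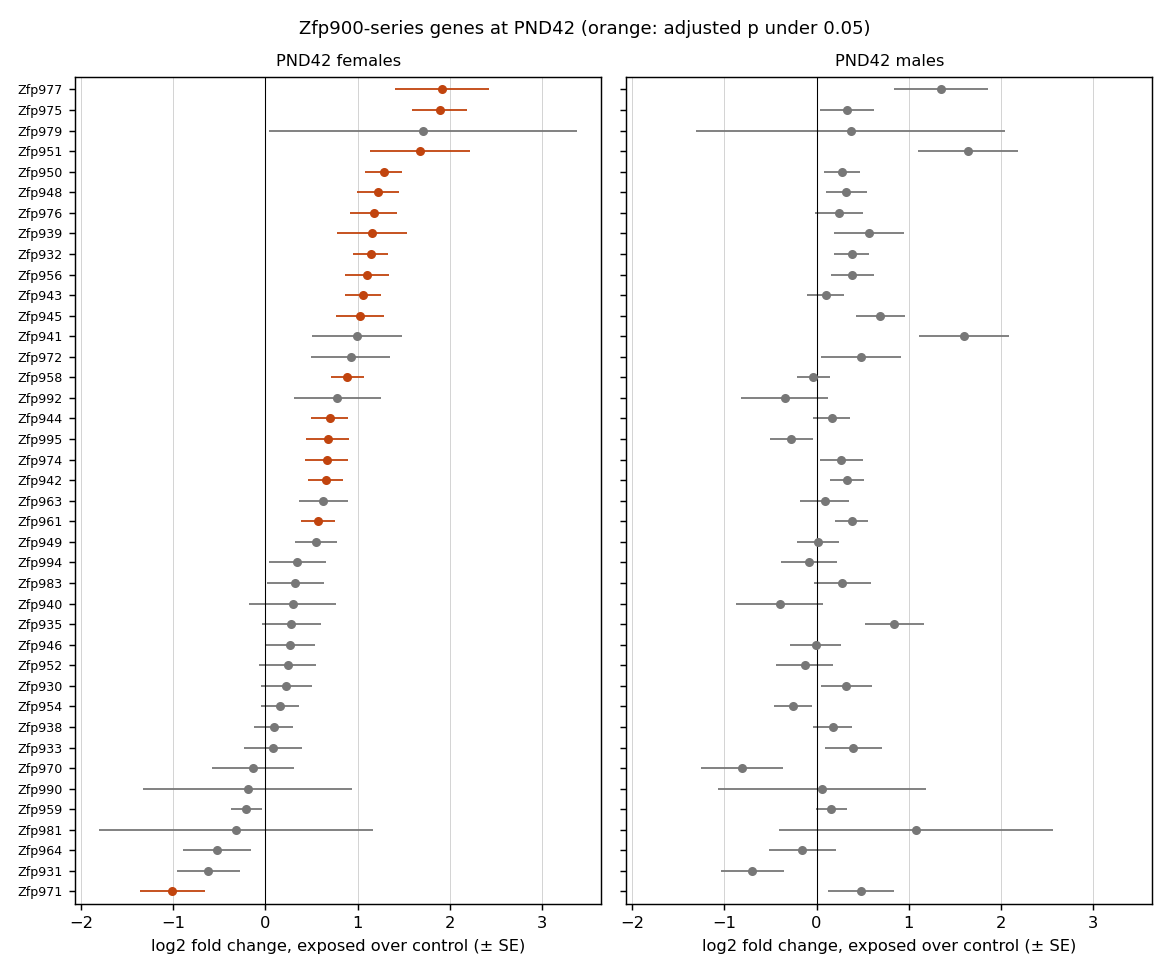
log2 fold change of exposed over control livers at PND42 with its SE for the 40 listed members, in females (left) and males (right), ordered by the value in females, orange where the limma adjusted p is under 0.05. In females 17 members are called above 0 and Zfp971 below, and in males 0 are called.

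The difference of the exposure effects, males minus females, was tested as an interaction. It was called for 4 members, all lower in males than in females, in a fit that called 7.91% of all genes (3.84% lower). They were Zfp975 (-1.56 ± 0.42, adjusted p = 0.0321), Zfp950 (-1.01 ± 0.28, 0.0373), Zfp943 (-0.96 ± 0.28, 0.0429) and Zfp958 (-0.92 ± 0.26, 0.0374). Zfp975 had 370, 185, 238 and 199 normalised counts in exposed males, against 177, 370, 193 and 102 in control males, with overlap. With limma voom, or with every library scaled to the same total, 0 members were called in this test. Both scale by library totals, so they are not separate checks.

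Between control males and control females at PND42, 0 of 40 members were called, 6.93% of all genes were, and 7 members had an unadjusted p under 0.05 (17.5%, against 23% of all genes). The lowest adjusted p was 0.0677, for Zfp971 at 73.7, 107, 41.1 and 82.1 normalised counts in males and 233, 126, 202 and 98.6 in females. Limma voom, also scaled to library totals, called 5 members lower in males, and scaling to the same total called 6. Both also moved the median of all genes to -0.38. Groups did not overlap for 2 of the 40 members, Zfp954 and Zfp992, both higher in males. Of all 13091 genes, 884 were higher and 738 lower in males without overlap, together 12.4%. Zfp992 had 264, 314, 205.2 and 355 in males and 138, 204.6, 94.6 and 161 in females, so its groups all but touched, and 24.8% of its stretches are shared. Kupffer cell markers (5 of 5 listed) summed to between 2728 and 3722 in control males and between 4764 and 8072 in control females, with no overlap, and their part was not tested.

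With age, 13 of 39 members tested were called between PND21 and PND1 control females, 11 higher and 2 lower at PND21, against 52.9% of all 14233 genes (26% higher and 26.9% lower). The split rests on the scaling. With every library scaled to the same total, the median of all genes shifted to -0.50, and 15 members were called, 5 higher and 10 lower, of which 7 were also among the 13. The 7 were Zfp970, Zfp972, Zfp931, Zfp939 and Zfp946 above and Zfp990 and Zfp930 below. Limma voom also called these 7, but it was scaled to library totals too and is no separate check of the scaling.

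Zfp970 changed most. It had 2966, 2341 and 5187 normalised counts at PND21 and 153.96, 176, 213 and 125 at PND1, a log2 fold change of 4.32 ± 0.27 (limma adjusted p = 1.39e-06). All PND21 libraries lay above all PND1 libraries. The other members of the chromosome 2 run lay higher at PND21 too. Zfp972 had 21.9, 42.5 and 31.9 at PND21 and 0, 4.23, 3.82 and 4.92 at PND1 (3.19 ± 0.73, adjusted p = 0.00413). Zfp931 had 139, 132 and 146.8 at PND21 and 28.3, 35.5, 47.8 and 35.3 at PND1 (1.91 ± 0.27, adjusted p = 0.000233). Zfp971, at 35.0, 78.4 and 99.7 at PND21 and 16.1, 16.1, 31.5 and 55.0 at PND1, was not called (1.29 ± 0.52, adjusted p = 0.0592).

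Zfp990, whose deviations ran opposite to those of Zfp933 at the other end of the run, was lower at PND21. It had 19.0, 42.5 and 13.9 normalised counts at PND21 and 144.5, 207, 255 and 123 at PND1, with no overlap (-2.91 ± 0.41, adjusted p = 0.000212). Zfp933 was higher, at 225, 120 and 190 at PND21 and 96.3, 94.8, 73.6 and 82.9 at PND1 (0.99 ± 0.26, adjusted p = 0.0101). Scaled to the same total, Zfp933 was not called. Exposed females, which enter no part of this fit, had 83.3, 58.9 and 27.5 of Zfp990 at PND21 and 221, 0, 418 and 122 at PND1, overlapping because of the library at 0.

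The pseudogene Zfp939 averaged 199 ± 35.1 normalised counts at PND21 and 56.9 ± 5.41 at PND1 (SD, n = 3 and 4), a log2 fold change of 1.78 ± 0.23. Zfp946 (1.12), Zfp983 (1.05), Zfp950 (0.96), Zfp976 (0.94), Zfp975 (0.70) and Zfp943 (0.63) were also higher by limma, and Zfp930 was lower (-0.60 ± 0.23, adjusted p = 0.045). Control groups did not overlap for 11 of 40 members above and 3 below. Of all 14259 genes, 3900 were above and 3974 below, together 55.2%. The erythroid, B-cell, neutrophil and Kupffer marker sums were all lower at PND21, and the hepatocyte sum and Cela1 higher, with no overlap, and their part was not tested.

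**Figure D5:**
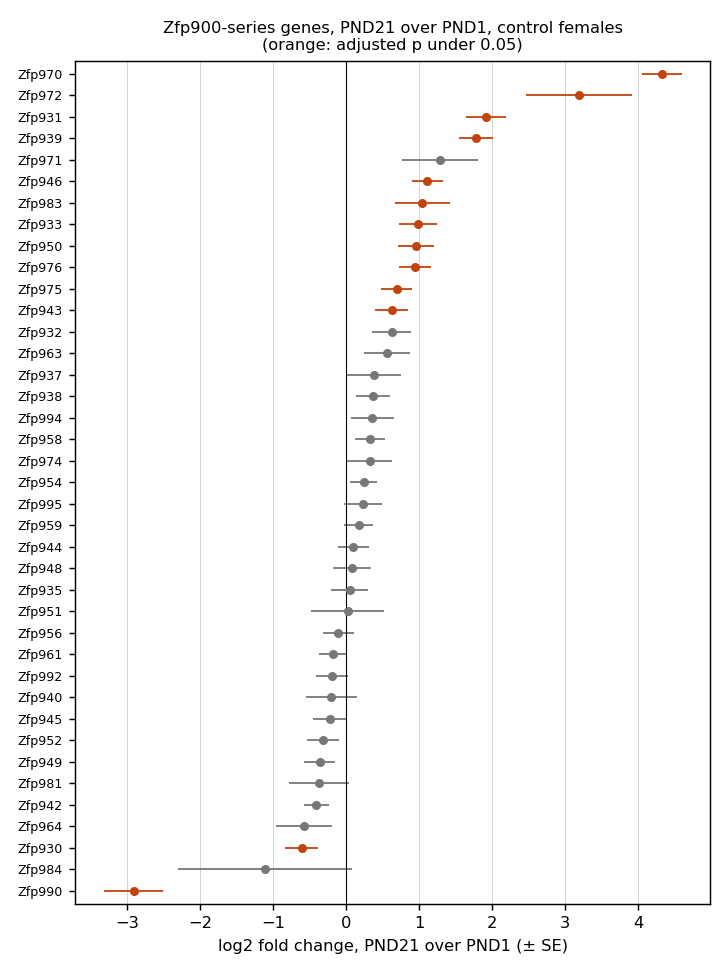
log2 fold change of PND21 over PND1 control females with its SE for the 39 members tested, orange where the limma adjusted p is under 0.05. Zfp970 (4.32) stands farthest above 0 and Zfp990 (-2.91) farthest below.

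KRAB zinc finger proteins act through co-repressors, and 34 of a list of 36 such genes were in the tables. Trim28 averaged 3968 ± 108 normalised counts in exposed PND42 females and 2708 ± 428 in control females (SD, n = 4 each), a log2 fold change of 0.56 (limma adjusted p = 0.0364). Setdb1 averaged 1347 ± 238 in exposed and 789 ± 153.1 in control females (0.77, adjusted p = 0.0221). In that comparison 14 of the 34 were called (41.2%), 11 higher and 3 lower, a share near the 40.2% of all genes called. Ehmt1, a histone methyltransferase, had the lowest adjusted p (log2 fold change 1.5, adjusted p = 1.57e-05), and Rbbp7, a histone-binding subunit of deacetylase complexes, was lower (-1.62, adjusted p = 2.02e-05). At PND1, at PND21 and in PND42 males 0 of the 34 were called by limma, and 3 (8.82%), 2 (5.88%) and 1 (2.94%) had an unadjusted p under 0.05, against 14.5%, 9.57% and 7.12% of all genes.

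With age 7 of the 34 co-repressors were higher and 13 lower at PND21, together 58.8%, against 52.9% of all genes. Their median log2 fold change was -0.24, against 0.24 for the members. When libraries were scaled to the same total the members' median was -0.27, but the median of all genes also moved, to -0.50. The co-repressor median was not computed at that scaling. Without that rescaling, Uhrf1 (-4.01) and Dnmt1 (-1.81), which copy DNA methylation after replication, and Rbbp7 (-1.90) were lower. Setdb1 was lower by less (-0.45 ± 0.15, adjusted p = 0.0295), and Trim28, at 3488 ± 803 at PND21 and 4031 ± 509 at PND1 (SD, n = 3 and 4), was not called.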

How the data were processed

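Liver RNA was read in single-end runs of 125 bp from RNA of integrity number 7 or more, per the labels. Per the submitters' processing notes, FastQC, STAR and featureCounts were used with build mm10, whose versions are not given in the sources used here. As deposited by the authors, values are log2 of counts divided by a size factor plus 1. All values gave whole reads within 0.1. The deposited signal (baseMean) is the mean normalised count. The authors' deposited fold changes and p-values were used only where named, and their deposited test score was not used.

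Columns were tied to samples by name. The tags of 4 PND42 control columns (1 female, 3 male) match no sample of their group. These columns were placed by exposure and sex alone and carry no replicate number. The tag of the female column is that of PND21 control female 1. Fits used limma 3.58.1 (trend, robust; R 4.3.3) on log2(normalised count + 1) over all genes with at least 10 normalised counts in as many libraries as the smallest group. Two-sided p-values were adjusted over all genes (Benjamini-Hochberg, 0.05). Both sexes shared 1 fit at PND42. The test was checked on simulated data. Among 163 pairs of libraries of the same age, none had over 0.516% of equal counts, over genes with at least 100 reads. Pairs of different ages were not compared, so the female column above was not checked against PND21 control female 1. Genes were named as those called, at most 12 per direction, or the 5 of lowest p; the on-off members; the extremes of level; the 3 most alike; and up to 4 co-repressors. Zfp949, Zfp970 and run neighbours were added after their values were seen. Members and lists were chosen with earlier results of these data known.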

Additional observations from a re-analysis of the deposited data

Results flagged for a closer look

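Within groups of 4, a library was singled out when its gap to the nearest other, as a share of the whole log2 range, exceeded Dixon's 95% critical value. This happened in 13 of 240 groups and members (5.42%), and chance gives about 5%. In exposed groups the values were 0.956 for Zfp949 at PND1 (4860 normalised counts), 0.903 for Zfp990 and 0.899 for Zfp992 in 1 and the same PND42 exposed female (0 and 61.1), and 0.885 for Zfp954 in that female (298, highest). In PND42 exposed males they were 0.88 for Zfp943 (584, highest), 0.923 for Zfp945 (405, lowest) and 0.872 for Zfp994 (80.0, lowest). In PND1 control females the same library, number 1, was highest for Zfp944 (0.967), Zfp949 (0.939) and Zfp958 (0.844) and lowest for Zfp972 (0.884). In PND42 control males the values were 0.912 for Zfp943 (566, highest) and 0.857 for Zfp972 (21.98, lowest).

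The exposure effects differed between PND42 males and females by the interaction test for Zfp975 (-1.56), Zfp950 (-1.01), Zfp943 (-0.96) and Zfp958 (-0.92), as log2 differences of males minus females.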

How the results depend on the processing

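No fold change of a named member under the alternatives turned its sign. The members' median log2 fold change did turn for age (0.24, but -0.27 with equal totals and with voom), for exposure at PND21 (0.03, but -0.03, -0.02 and -0.06 without control 3, exposed 1 and exposed 2) and for the difference between ages (-0.13, but 0.065 with equal totals and 0.139 with voom). The count of members called stayed within 1.5 times for PND42 females (14 to 17 leaving out 1 library at a time, 15 to 18 under the other settings) and for age (9 to 12 leaving out 1, 9 with the replicate block, 13 to 15 otherwise). Leaving out 1 library gave 0 to 1 at PND21 (1, Zfp981, without exposed female 3) and 0 to 4 between control males and females (4 without an unnumbered male, 2 without female 4). It gave 0 to 7 for the interaction at PND42, whose 4 calls thus changed with the library left out. The log2 differences of these 4 members stayed between -1.86 and -0.80, with limma adjusted p up to 0.0963. Between control sexes voom gave 5 and equal totals 6, and for the interaction both gave 0. Zfp971 in PND42 females lost its call in 8 of 15 alternatives (-1.23 to -0.72). On-off members were 4 under limits of 5 and 50, under equal totals and without any 1 library; a log2 range of at least 3 gave 8, adding Zfp949, Zfp951, Zfp970 and Zfp977. Voom was scaled to library totals and so repeats the scaling of equal totals. Both shifted the all-gene median to 0.23 (PND21), -0.50 (age), -0.38 (between sexes) and 0.18 (difference between ages). Under both, the members' median stayed above that of all genes for age and below it for the difference between ages. The causes were not tested.

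Equal replicate numbers did not pair the libraries (correlations of deviations -0.12 to 0.29). With the replicate block the members called were 0 at PND1, 0 at PND21, 16 in PND42 females, 9 with age (8 higher, 1 lower) and 0 for the difference between ages. No block was possible for PND42 males, between sexes and for the interaction of sex and exposure, which share fewer than 2 numbers. Counts under about 3 reads cannot be told from 0, which limits Zfp979, Zfp984 and Zfp972 most.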
